A study of Mus musculus with 6 samples.

Results

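The proteasome subunit genes of mouse bone marrow were defined as the protein-coding genes of the deposited count table whose symbol starts with Psma, Psmb, Psmc, Psmd, Psme or Psmg followed by a digit. This gave 48 of the 54532 genes in the table. A further inducible subunit gene was not analysed here. The libraries were made from total RNA of bone marrow cells taken fresh from the femurs of wild-type mice. In the unloaded group (3 libraries) the mice were kept under hindlimb unloading for 4 weeks, which takes the weight off the hind limbs and serves as a model of osteoporosis from disuse. The control group (3 libraries) had no unloading. The labels give no strain, age or sex, and do not say whether each library came from a separate animal, so p-values measure the spread between these libraries. The NEBNext Ultra library kit named in the labels does not mark the strand of a read. Total counts ran from 15850986 to 16543465 in unloaded libraries and from 16727836 to 17775506 in control libraries. Unloaded 1 stood apart from the other 5 libraries: its score on the first principal component was -51.3, against 7.37 to 13.7, and mitochondrial transcripts made up 0.439% of its counts, against 1.05% to 1.27%. Where leaving it out moved a named fold change by over 1.5 times or turned its sign, the value without it is given.

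The proteasome degrades proteins tagged with ubiquitin. Its core particle, 20S, is a barrel of outer rings of alpha subunits, which gate the entrance, and inner rings of beta subunits, of which Psmb6, Psmb7 and Psmb5 carry the active sites. The regulatory particle, 19S, binds, unfolds and feeds in the tagged protein. In leukocytes and under interferon gamma, inducible beta subunits take the place of the constitutive catalytic ones: Psmb9 replaces Psmb6 and Psmb10 replaces Psmb7. The resulting immunoproteasome is known for supplying peptides to MHC class I.

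The promoters of 3 members are given in windows that run from 250 bases before to 50 bases after the start site in RefSeq, on build GRCm38.p6 (mm10). Psmb6 and Psmb9 are shown because they are the constitutive and the inducible form of the same catalytic position, and Psmg1 because it had the smallest p of all members. Capitals mark matches, on either strand, to 3 motifs. TGANNNNGC is a loose form of the core of the antioxidant response element, which the factors Nfe2l1 and Nfe2l2 bind. CCAAT is bound by NF-Y, and TTCNNNGAA is the core of the gamma-activated site.
Psmb9 promoter, chr17:34187281-34187580, minus strand: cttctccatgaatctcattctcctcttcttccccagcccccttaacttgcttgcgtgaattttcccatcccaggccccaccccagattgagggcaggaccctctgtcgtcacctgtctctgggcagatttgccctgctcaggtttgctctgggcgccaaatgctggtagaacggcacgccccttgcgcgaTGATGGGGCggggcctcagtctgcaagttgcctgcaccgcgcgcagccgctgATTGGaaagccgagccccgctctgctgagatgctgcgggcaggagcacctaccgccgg
Psmb6 promoter, chr11:70525107-70525406, plus strand: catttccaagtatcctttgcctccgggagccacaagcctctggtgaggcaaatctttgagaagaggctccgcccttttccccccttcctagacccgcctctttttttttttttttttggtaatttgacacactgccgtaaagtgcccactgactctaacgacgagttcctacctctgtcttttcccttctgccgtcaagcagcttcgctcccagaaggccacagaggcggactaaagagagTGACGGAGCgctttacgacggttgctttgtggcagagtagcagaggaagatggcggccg
Psmg1 promoter, chr16:95990911-95991210, minus strand: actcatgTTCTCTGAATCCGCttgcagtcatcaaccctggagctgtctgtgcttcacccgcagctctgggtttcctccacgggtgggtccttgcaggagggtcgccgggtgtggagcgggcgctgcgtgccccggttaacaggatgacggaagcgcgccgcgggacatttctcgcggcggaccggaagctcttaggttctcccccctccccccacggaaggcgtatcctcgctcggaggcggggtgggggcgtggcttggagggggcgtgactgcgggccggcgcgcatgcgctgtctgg
The Psmb9 window held 1 TGANNNNGC and 1 CCAAT match, read as ATTGG on the printed strand. The Psmb6 window held 1 TGANNNNGC match. In the Psmg1 window a TTCNNNGAA and a TGANNNNGC match overlapped.

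Of the 48 members, 40 had promoter windows in the RefSeq table, 43 windows in all. TGANNNNGC was found in 58.1% of these windows and in 41.3% of all 32851 windows of the same length. CCAAT was in 34.9% of member windows and 37.4% of all windows. TTCNNNGAA was in 4.65% and 8.3%, and among members only Psmg1 and Psmd2 had it. A match describes letters in this window and not binding.

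After 4 weeks of unloading no proteasome gene passed a test adjusted over all genes, and fold changes ran from -0.27 for Psme2b to 0.48 for Psmg3 on the log2 scale. Of 47 members with enough counts to test, 0 passed edgeR's quasi-likelihood test at an adjusted p under 0.05, the share over all 15015 tested genes being 0%. The smallest adjusted p among the members was 0.770, for Psmg1. At an unadjusted p under 0.05 there were 3 members: Psmg1 and Psmg3 were higher (2.67% of all tested genes) and Psme2b was lower (3.18% of all). DESeq2 called 0 members (0.302% of the genes for which it gave an adjusted p), with 2 at an unadjusted p under 0.05. Limma-voom also called 0, with 3. For both methods the share of all genes at that unadjusted p was not counted.

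Fold changes were positive in 37 of the 47 members, against 51.2% of all tested genes, and negative in 10, against 48.8% of all. Their median log2 fold change was 0.09, against 0.01 over all tested genes. Leaving out unloaded 3 gave 0.04, with 30 positive, and leaving out control 1 gave 0.06, with 32 positive. Members share libraries and scaling and are not independent, so no test was made of this count. Control 1 was the lowest of the 6 libraries for 25 of the 47 members. The summed level of all 48 members was 4063, 3788 and 4162 CPM in unloaded 1 to 3 and 3601, 3939 and 3803 CPM in control 1 to 3. These sums overlapped between the groups, with control 2 above unloaded 2. CPM is the usual count scaled to library size, here with TMM (trimmed mean of M-values) factors. In bulk RNA, fewer cells of a type and less RNA per cell cannot be told apart.

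**Figure D1:**
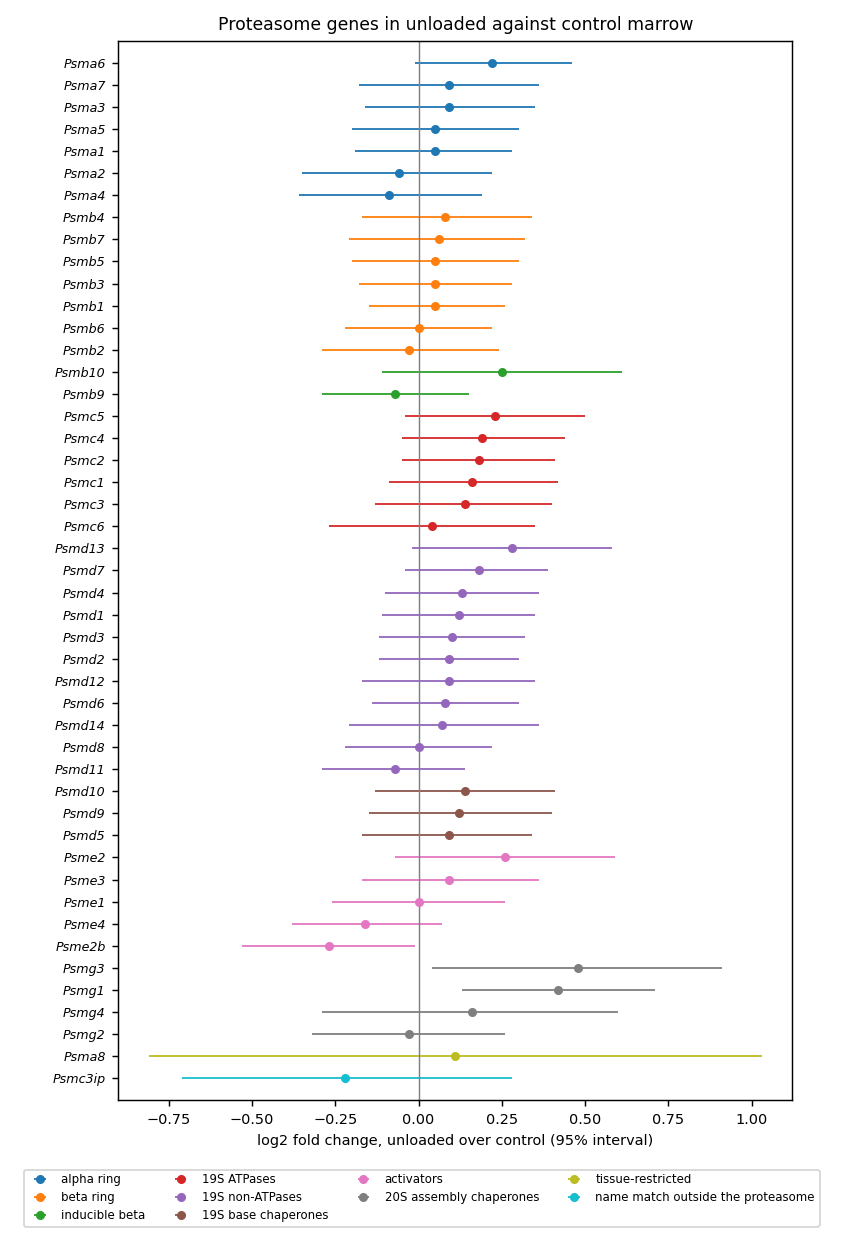
Log2 fold change of the 47 tested members, unloaded over control, with the 95% interval from edgeR's fit over all genes, coloured by role. The intervals of Psmg1 and Psmg3 lie above 0 and that of Psme2b lies below 0. The other intervals contain 0.

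The core particle had 14 constitutive genes, all tested. Their fold changes ran from -0.09 to 0.22 on the log2 scale, with a median of 0.05 and 11 of 14 positive. Leaving out unloaded 3 gave -0.02 and leaving out control 1 gave 0.01. The summed level was 1332, 1269 and 1448 CPM in unloaded 1 to 3 and 1221, 1378 and 1302 CPM in control 1 to 3, so the groups overlapped. Among the alpha subunits, Psma6 had the smallest p. Its level was 127, 114 and 126 CPM in unloaded 1 to 3, against 94.1, 112 and 107 CPM in control 1 to 3 (log2 fold change 0.22 ± 0.11, SE; edgeR adjusted p = 0.864). All 3 unloaded values lay above all 3 control values, and the gap between unloaded 2 and control 2 was small. Psma4 lay at the other end of the ring, at -0.09 ± 0.12, with values that overlapped, and at 0.01 without unloaded 1. Within the beta ring no gene had separated groups, and fold changes stayed between -0.03 for Psmb2 and 0.08 for Psmb4. Without unloaded 1 these were 0.04 for Psmb2 and 0.02 for Psmb4.

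Levels differed far more between subunits than between groups. Per kilobase of the deposited gene length, Psma6 was the highest of the 14 constitutive genes, at 98.9 CPM per kb in unloaded and 84.7 in control marrow. Psma3 was the lowest, at 15.8 CPM per kb in unloaded and 14.8 in control marrow. The highest over the lowest was 6.26-fold in unloaded and 5.72-fold in control marrow. What the deposited length counts is not stated. Divided by the longest protein-coding transcript in GENCODE M21 instead, Psmb3 was the highest at 150 and 145 CPM per kb in unloaded and control marrow, and Psma3 stayed the lowest at 21.6 and 20.2. The order of subunits therefore depends on which length is used, whereas fold changes between groups do not. In the beta ring per deposited kb, Psmb4 was the highest (84.3 in unloaded, 79.5 in control) and Psmb7 the lowest (18.7 in unloaded, 17.9 in control).

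None of the 3 constitutive catalytic genes passed the test, and their fold changes ran from 0.00 to 0.06 on the log2 scale. Psmb6, whose product cuts after acidic residues, was at 77.0, 69.7 and 74.9 CPM in unloaded 1 to 3, against 69.5, 75.0 and 76.6 CPM in control 1 to 3. Psmb7, with trypsin-like activity, was at 59.3, 57.9 and 74.4 CPM in unloaded libraries, against 61.4, 63.5 and 59.1 CPM in control libraries. Psmb5, with chymotrypsin-like activity and the main target of proteasome inhibitor drugs, was at 56.8, 56.1 and 67.5 CPM in unloaded libraries, against 53.9, 60.5 and 59.9 CPM in control libraries. For Psmb7 and Psmb5 unloaded 3 was the highest library, and the groups overlapped for all 3 genes. The log2 fold changes were 0.00 ± 0.10 for Psmb6 (95% interval -0.22 to 0.22), 0.06 ± 0.12 for Psmb7 (-0.21 to 0.32) and 0.05 ± 0.11 for Psmb5 (-0.20 to 0.30). Without unloaded 1 they were -0.03 for Psmb6, 0.11 for Psmb7 and 0.09 for Psmb5.

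The inducible genes Psmb9 and Psmb10 had fold changes of opposite sign, and neither passed the test. Psmb9 (mm10 chromosome 17, 34181988 to 34187764) was at 64.4, 64.0 and 65.6 CPM in unloaded 1 to 3, against 62.8, 72.5 and 68.5 CPM in control 1 to 3. The unloaded values lay close together, inside the range of the controls. Its log2 fold change was -0.07 ± 0.10 (SE; 95% interval -0.29 to 0.15; edgeR adjusted p = 0.943). Psmb10 (chromosome 8, 105935735 to 105938444) was at 99.7, 60.7 and 71.2 CPM in unloaded 1 to 3, against 61.1, 65.6 and 67.7 CPM in control 1 to 3. Only unloaded 1 stood far above the rest, and unloaded 2 was the lowest of the 6. The log2 fold change of Psmb10 was 0.25 ± 0.16 (95% interval -0.11 to 0.61; edgeR adjusted p = 0.896), and 0.03 without unloaded 1.

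**Figure D2:**
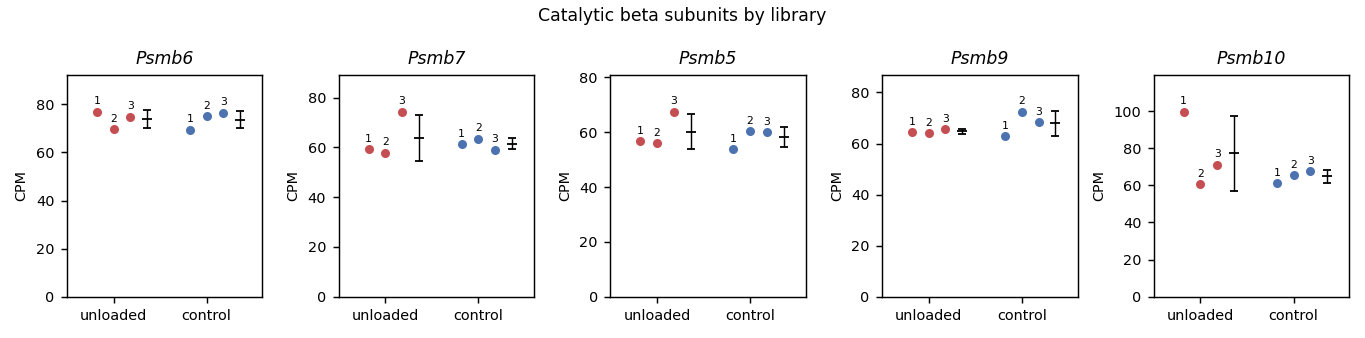
CPM of the 3 constitutive and 2 inducible catalytic genes in each library, numbered by replicate, with the mean and SD of each group (n = 3). Psmb10 in unloaded 1, at 99.7 CPM, stands furthest apart. For Psmb7 and Psmb5 unloaded 3 is the highest point, at 74.4 and 67.5 CPM. Every gene overlaps between groups.

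Each inducible gene was then set against the gene whose place it takes, as a ratio within each library, which does not depend on library scaling. Psmb9 over Psmb6 in counts was 0.837, 0.919 and 0.875 in unloaded 1 to 3, against 0.904, 0.966 and 0.895 in control 1 to 3. The groups overlapped, and the difference of the log2 ratio was -0.07 (exact permutation test, two-sided, n = 3 each, p = 0.3, adjusted over the 2 ratios 0.6). Psmb10 over Psmb7 in counts was 1.68, 1.05 and 0.957 in unloaded libraries, against 0.995, 1.03 and 1.14 in control libraries. Its log2 difference was 0.17 (exact permutation p = 0.8, adjusted 0.8), and -0.08 without unloaded 1. With 3 against 3 the smallest p this test can give is 0.1. Per deposited gene length Psmb9 over Psmb6 averaged 0.449 ± 0.0210 in unloaded and 0.472 ± 0.0199 in control marrow (SD, n = 3). Psmb10 over Psmb7 averaged 2.47 ± 0.792 in unloaded and 2.12 ± 0.155 in control marrow. Per transcript length, Psmb10 over Psmb7 ran from 0.847 to 1.49 in unloaded and from 0.881 to 1.01 in control libraries, so whether Psmb10 lies above Psmb7 depends on the length used.

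Against the mean log2 CPM of the 14 constitutive genes, Psmb9 lay at -0.43, -0.41 and -0.57 in unloaded 1 to 3 and at -0.38, -0.34 and -0.36 in control 1 to 3. Every unloaded value was below every control value, by 0.11 on average, with a narrow margin between unloaded 2 and control 1. The lowest value was that of unloaded 3. There the constitutive genes had a median deviation of 0.16 from their means over the 6 libraries (log2), and Psmb9 had -0.01. Psmb10 lay at 0.20, -0.49 and -0.45 in unloaded libraries and at -0.42, -0.49 and -0.38 in control libraries. Unloaded 1 was far above the controls for Psmb10, and the other unloaded values lay within the control range. These offsets are a description with no test. The annotated span of Psmb9 overlaps that of Tap1 (34187553 to 34197225, opposite strand) at the ends of both genes. Reads in that short shared stretch cannot be told apart without strand. The count of Tap1 was 239% of that of Psmb9.

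The inducible genes are regulated with other genes of interferon response and class I peptide supply. In a list of 8 such genes 0 passed edgeR's test, 0 were at an unadjusted p under 0.05, 7 had negative fold changes and the median was -0.10. B2m, the light chain of MHC class I, was at 523, 703 and 736 CPM in unloaded 1 to 3, against 758, 831 and 737 CPM in control 1 to 3. The groups were apart only by the gap between unloaded 3 and control 3. Its log2 fold change was -0.24 ± 0.14, and -0.11 without unloaded 1. Nlrc5, an activator of class I genes, had 0.22 ± 0.14, and 0.10 without unloaded 1. T cells and NK cells carry much immunoproteasome, and their markers were summed beside these values. The 6 T cell markers summed to between 35.8 and 64.0 CPM in unloaded and between 30.0 and 42.5 CPM in control libraries. The 4 NK markers summed to between 21.1 and 31.9 CPM in unloaded and between 18.8 and 22.8 CPM in control libraries, with unloaded 1 the highest. The dendritic markers, 4 genes, summed to between 69.8 and 86.7 CPM in unloaded and between 93.4 and 98.1 CPM in control libraries, with separated groups. The 4 genes did not move as one. Siglech and Cd209a had separated groups, at log2 fold changes of -0.32 and -0.64. Flt3 and Xcr1 overlapped, at -0.10 and 0.17 (-0.31 and 0.28 without unloaded 1). The T, NK and dendritic markers were all detected. Their part in the Psmb9 and Psmb10 values was not tested.

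The regulatory particle had 17 genes, of which 15 had positive fold changes, with a median of 0.12. All 6 ATPase genes (Psmc1 to Psmc6), which form the ring that unfolds substrates, were positive, between 0.04 for Psmc6 (0.17 without unloaded 1) and 0.23 for Psmc5. Psmc5 was at 83.6, 64.7 and 80.8 CPM in unloaded 1 to 3, against 62.1, 70.2 and 63.1 CPM in control 1 to 3. Unloaded 2 lay inside the control range there. The ATPase sum was 671, 562 and 650 CPM in unloaded libraries, against 534, 592 and 563 CPM in control libraries, and unloaded 2 was below 2 of the 3 controls.

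Among the 11 other subunits of the regulatory particle, 9 were positive, with a median of 0.09. Psmd13, a lid subunit, was at 146, 105 and 119 CPM in unloaded 1 to 3, against 92.8, 114 and 97.9 CPM in control 1 to 3 (0.28 ± 0.14). Its groups overlapped, and without unloaded 1 the fold change was 0.14. Psmd7, the lid partner of the deubiquitinase Psmd14, was at 85.7, 80.3 and 85.9 CPM in unloaded libraries, against 70.5, 75.4 and 76.9 CPM in control libraries. Its unloaded values lay above all controls, at a fold change of 0.18 ± 0.10 (edgeR adjusted p = 0.883), and it was 0.16 without unloaded 1. Psmd2, a base scaffold that binds ubiquitin-like domains, was the most abundant of all members by CPM. It stood at 241, 226 and 226 CPM in unloaded libraries, against 217, 214 and 220 CPM in control libraries, separated by a narrow margin (0.09 ± 0.09; 0.06 without unloaded 1). Psmd14 itself was at 0.07 ± 0.13, and at 0.19 without unloaded 1, with unloaded 1 the lowest library and unloaded 3 the highest. The ubiquitin receptor Psmd4 was at 0.13 ± 0.11, and at 0.05 without unloaded 1. Per deposited kb, the ATPase genes lay between 21.4 for Psmc2 and 59.8 for Psmc3 and Psmc1 in unloaded marrow, and between 18.9 for Psmc2 and 54.3 for Psmc3 in control marrow. The other 11 lay between Psmd11 (10.9 in unloaded, 11.5 in control) and Psmd2 (57.2 in unloaded, 53.7 in control).

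Among the chaperones that assemble the particles, Psmg3 and Psmg1 had the largest fold changes of all tested members, and the others did not. Psmg1, which with Psmg2 holds together the growing alpha ring, was at 22.3, 23.2 and 21.7 CPM in unloaded 1 to 3, against 15.2, 18 and 17.0 CPM in control 1 to 3. The unloaded values lay within a narrow band above every control. The log2 fold change was 0.42 ± 0.13 (SE; 95% interval 0.13 to 0.71), with an unadjusted edgeR p of 0.00858 that did not pass over all genes (edgeR adjusted p = 0.770; DESeq2 adjusted p = 0.452). It stayed between 0.35 and 0.47 with each library left out. These values rest on 350, 393 and 351 counts in unloaded libraries and 266, 298 and 290 in control libraries. Psmg3, which acts with Psmg4, was at 12.5, 8.54 and 10.4 CPM in unloaded libraries, against 7.09, 8.26 and 7.22 CPM in control libraries. The groups were separated, unloaded 2 only just. Its fold change of 0.48 ± 0.20 (edgeR adjusted p = 0.805) ran from 0.33 without unloaded 1 to 0.60 without unloaded 2. Their partners had overlapping values, Psmg2 at -0.03 ± 0.13 (0.07 without unloaded 1) and Psmg4 at 0.16 ± 0.20. The difference between partners was not tested. The 3 chaperones of the 19S base, Psmd5, Psmd9 and Psmd10, lay at 0.09, 0.12 and 0.14 (0.16, 0.05 and 0.14 without unloaded 1), and their summed level was 119, 121 and 124 CPM in unloaded libraries, against 113, 111 and 113 CPM in control libraries. The sums did not overlap, whereas each gene did. Per deposited kb, the levels of the 4 assembly chaperones lay between Psmg3 (3.62 in unloaded, 2.6 in control) and Psmg2 (24.1 in unloaded, 24.6 in control). Those of the base chaperones lay between Psmd9 (5.36 in unloaded, 4.92 in control) and Psmd10 (16.2 in unloaded, 14.7 in control).

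**Figure D3:**
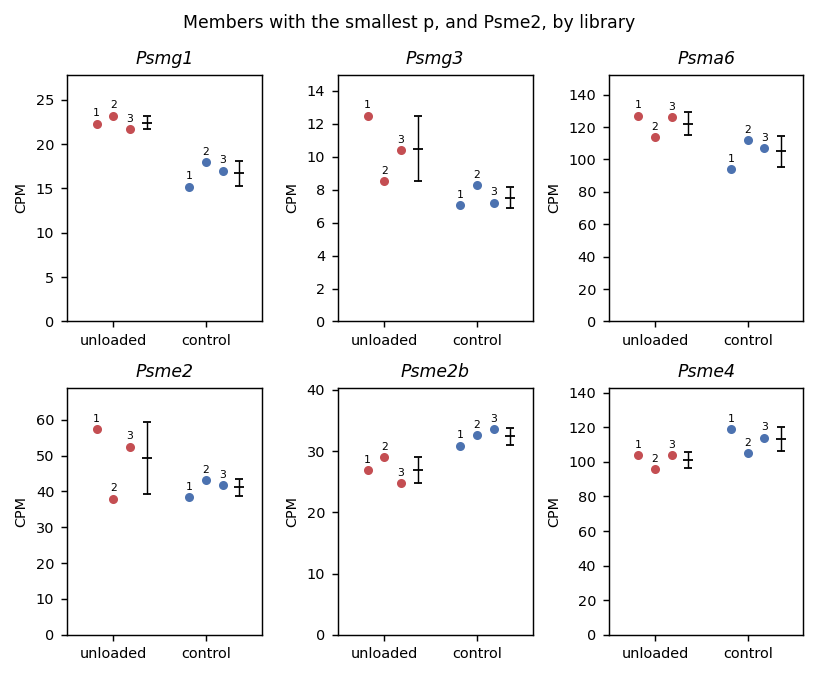
CPM in each library, numbered by replicate, with mean and SD (n = 3), of the leading members per direction by p (Psmg1, Psmg3 and Psma6 higher, Psme2b and Psme4 lower) and of Psme2. Psmg1, Psmg3 and Psma6 have all unloaded points above all control points, Psme2b and Psme4 all below, and Psme2 overlaps.

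Over all 47 tested members, all 3 unloaded values lay above all 3 control values in 5, namely Psmg1, Psmg3, Psma6, Psmd7 and Psmd2. That is 10.6% of the members, against 5.46% of all tested genes. The unloaded values lay below all controls in 2 members, Psme2b and Psme4, which is 4.26% against 6.4% of all tested genes. The members share libraries, so these shares are given without a test.

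The activators bind the ends of the core particle in place of 19S. Psme1 and Psme2 form the interferon-inducible activator of the cytoplasm. Psme1 was at 134, 113 and 115 CPM in unloaded 1 to 3, against 106, 132 and 123 CPM in control 1 to 3, with no difference beyond the spread (0.00 ± 0.12; 95% interval -0.26 to 0.26; -0.08 without unloaded 1). Psme2 was at 57.4, 38.0 and 52.5 CPM in unloaded libraries, against 38.4, 43.2 and 41.8 CPM in control libraries. Unloaded 2 was the lowest library and the other unloaded values were the highest (0.26 ± 0.15; edgeR adjusted p = 0.890; 0.42 without unloaded 2, 0.14 without unloaded 1). Psme3, which forms a nuclear activator alone, was at 147, 194 and 193 CPM in unloaded libraries, against 169, 165 and 166 CPM in control libraries. Unloaded 1 was the lowest and the other unloaded libraries the highest, and the fold change of 0.09 ± 0.12 was 0.21 without unloaded 1. Psme4, a large nuclear activator known for its role in degrading acetylated histones in germ cells, was at 104, 95.6 and 104 CPM in unloaded libraries, against 119, 105 and 114 CPM in control libraries. Every unloaded value was below every control, narrowly for control 2 (-0.16 ± 0.10; edgeR adjusted p = 0.896). Per deposited kb, Psme3 was the highest activator (60.3 in unloaded, 56.5 in control) and Psme4 the lowest (12.1 in unloaded, 13.4 in control).

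Psme2b, a copy of Psme2 on chromosome 11, had the smallest p among the lower members. It was at 26.9, 29.0 and 24.8 CPM in unloaded 1 to 3, against 30.9, 32.6 and 33.6 CPM in control 1 to 3. The groups did not overlap. The log2 fold change was -0.27 ± 0.12, and edgeR's quasi-likelihood test gave an unadjusted p of 0.0433 and an adjusted p of 0.828. Its value needs care, because the coding sequences of Psme2 and Psme2b in GENCODE M21 differ at 5 of 717 bases (99.3% identity), with an identical run of 311 bases. The 60 coding bases with the most differences, positions 484 to 543 from the start codon, are printed to show how few letters tell the copies apart, and the 3 differing bases are in capitals.
Psme2, chromosome 14: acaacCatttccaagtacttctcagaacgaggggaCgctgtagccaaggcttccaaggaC
Psme2b, chromosome 11: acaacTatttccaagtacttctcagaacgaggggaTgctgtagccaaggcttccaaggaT
How reads with several alignments were counted is not stated, so the split between the copies is uncertain. Psme2b made up 31.9%, 43.3% and 32.0% of the reads of both genes in unloaded 1 to 3, against 44.6%, 43.0% and 44.6% in control 1 to 3. Unloaded 1 and 3 stood apart from the other 4 libraries in this share. The level of both genes together was 84.3, 67.0 and 77.3 CPM in unloaded libraries, against 69.4, 75.7 and 75.4 CPM in control libraries, and overlapped. Psme2b also overlaps another gene on the same strand whose count was 39.2% of its own.

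Tissue-restricted forms were close to absent. Psma8, the alpha subunit of germ cells, was at 1.15, 1.41 and 1.48 CPM in unloaded libraries, against 1.43, 0.603 and 1.70 CPM in control libraries. Psmb11, the beta subunit of the thymic cortex, had 4, 1 and 2 counts in unloaded libraries and 1, 0 and 0 in control libraries. It was the 1 member too low to test, and a library with 0 counts allows up to 0.179 CPM. Psmc3ip matched the naming rule but encodes a cofactor of meiotic recombination and not a subunit. It was at 7.39, 12.7 and 12.0 CPM in unloaded libraries, against 10.3, 12.7 and 14.4 CPM in control libraries (-0.22 ± 0.22), and at -0.01 without unloaded 1. Of the 48 members, 7 overlapped another gene with at least 10% of their count, among them Psmb7, Psmd13 and Psmc3. The largest share was at Psmc3ip, whose annotated span overlaps that of Mlx on the opposite strand. The count of Mlx was 400% of that of Psmc3ip, so the Psmc3ip values need care.

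Genes around the proteasome likewise held 0 calls by edgeR and 0 members at an unadjusted p under 0.05. Of 11 tested genes for other proteasome parts and cofactors, 8 were positive, with a median of 0.07. Ecpas, which binds the assembled 26S particle, was at 0.15 ± 0.10, Sem1, a small 19S subunit, at 0.15 ± 0.12, Akirin2, which helps import proteasomes into the nucleus, at -0.08 ± 0.12, and Ube3c, a ubiquitin ligase bound to the proteasome, at -0.03 ± 0.13, or 0.10 without unloaded 1. Of 10 genes for the transcription of subunits, 6 were positive, with a median of 0.01. Nfe2l1, the factor that raises subunit transcription when the proteasome is impaired, was at -0.14 ± 0.11, and at -0.21 without unloaded 1. Mafg, one of its small Maf partners, was at -0.14 ± 0.10, Maff at 0.34 ± 0.27 (0.17 without unloaded 1) and Vcp, the segregase that releases Nfe2l1 from the membrane of the endoplasmic reticulum, at 0.18 ± 0.11. Of 11 ubiquitin and shuttle genes, 8 were positive, with a median of 0.05. The polyubiquitin gene Ubb was at -0.21 ± 0.11 with separated groups, and at -0.13 without unloaded 1. Rps27a, a ubiquitin fusion gene, was at -0.35 ± 0.21.

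The library that stood apart, unloaded 1, also had the widest spread of proteasome values. It was the highest library for 18 members and the lowest for 8. The SD of its deviations from the mean of the 6 libraries, over the 47 members, was 0.22 on the log2 scale, against 0.11 to 0.15 in the others. Over all tested genes this SD was 0.42 in unloaded 1, against 0.28 to 0.31 in the others. The wide spread was thus not particular to the members. Deviations of the members in unloaded 1 ran from -0.61 for Psmc3ip to 0.51 for Psmb10. Across the 47 genes they followed transcript GC content with r = 0.59, and across 15003 tested genes with r = 0.29. Over the members r was -0.23 in unloaded 2 and -0.42 in unloaded 3, and -0.44, 0.21 and -0.31 in control 1 to 3. Genes of 1 library share its preparation and are not replicates, so these are descriptions. GC trends were then removed in a fit added after seeing the data. In it Psmb10 was at 0.20, Psmg1 at 0.41, Psmg3 at 0.43 and Psme2b at -0.26. In this fit 0 members were called by edgeR, with 4 at an unadjusted p under 0.05. The share of all genes at that unadjusted p was not counted here.

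**Figure D4:**
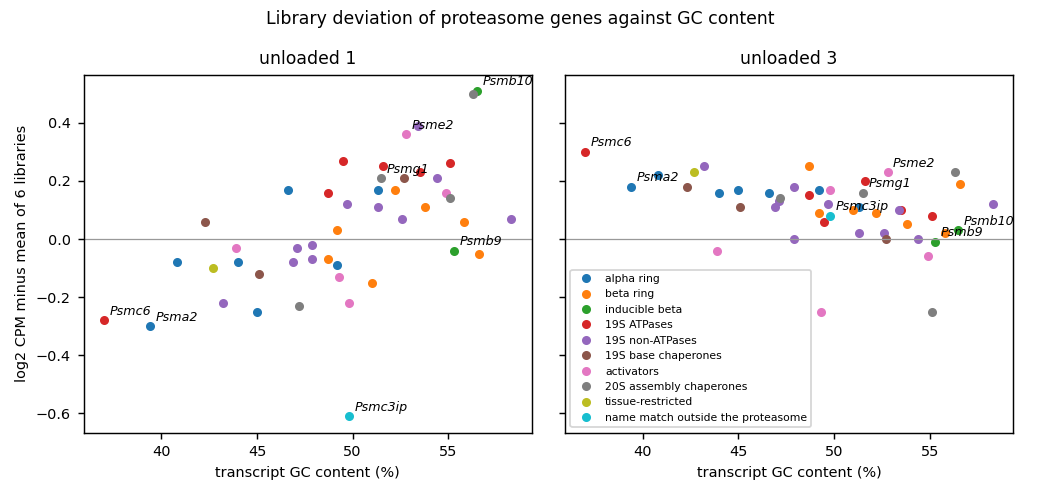
Deviation of each of 47 genes from its mean over the 6 libraries (log2 CPM) against the GC content of its transcript, in unloaded 1 and unloaded 3, coloured by role. In unloaded 1 the GC-rich Psmb10 is at 0.51 and the GC-poor Psmc6 and Psma2 are below 0 (r = 0.59). In unloaded 3 the slope is the other way (r = -0.42), as it is in control 1 (r = -0.44, not plotted). Deviations of a gene sum to 0 over the 6 libraries, so opposite slopes are partly built in.

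**Figure D5:**
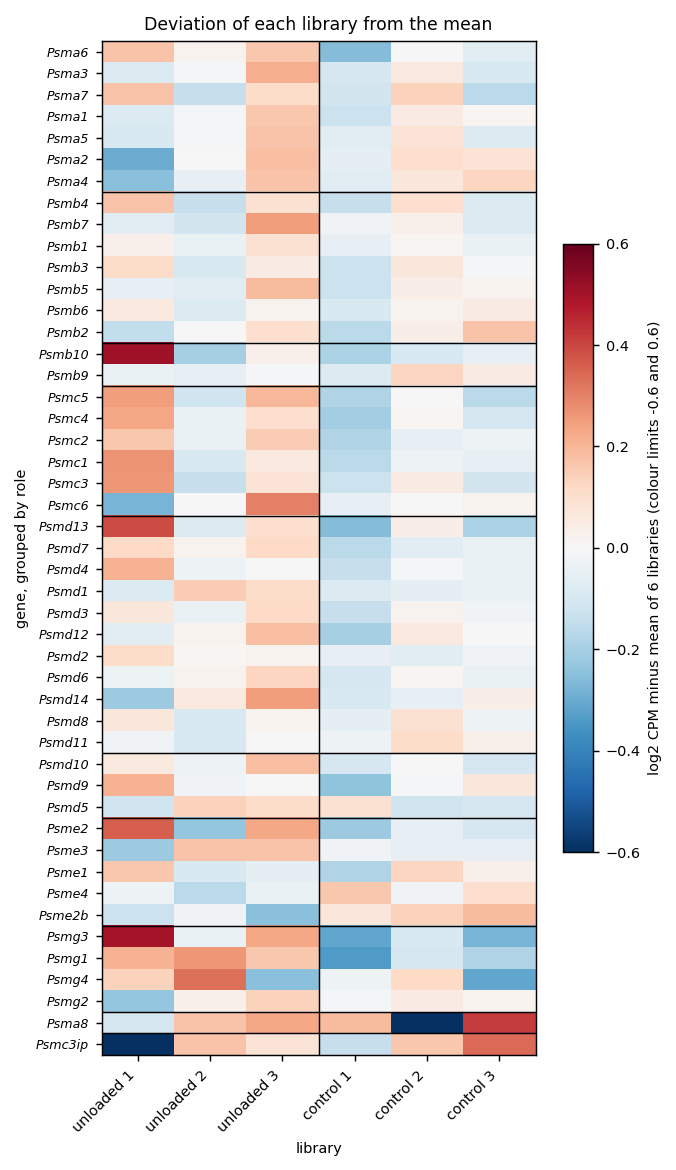
Deviation of each of 47 genes in each library from the mean of the 6 libraries (log2 CPM), with genes grouped by role and libraries in columns. Unloaded 1 has a mixture of high and low genes, and control 1 is the lowest library for 25 genes. The Psma8 value in control 2 (-0.91) and the Psmc3ip value in unloaded 1 (-0.61) lie beyond the colour limits.

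The median coefficient of variation over the 47 members was 9.40% in unloaded and 6.23% in control marrow, against 15.9% (unloaded) and 10% (control) over all tested genes. Over unloaded 2 and 3 alone it was 7.45%, against 8.57% over all tested genes. A coefficient from 2 libraries is not on the scale of one from 3. The 7.45% therefore cannot be set against 9.40% or 6.23%, and does not tell whether the spread changed without unloaded 1. The members and all tested genes were not matched for count level, on which this coefficient depends. Cell composition was followed through marker lists. The 7 neutrophil markers summed to between 44700 and 55050 CPM in unloaded and between 47870 and 55630 CPM in control libraries. The 4 erythroid markers summed to between 3975 and 5307 CPM in unloaded and between 3130 and 3820 CPM in control libraries, with separated groups. Of these 4, 3 were higher at an unadjusted edgeR p under 0.05 and 0 passed adjustment by edgeR. By DESeq2, Hbb-bs, a beta-globin gene, passed (adjusted p = 0.0358). The 4 B-lineage markers summed to between 328 and 486 CPM in unloaded and between 427 and 501 CPM in control libraries. The 4 plasma cell markers summed to between 514 and 583 CPM in unloaded and between 475 and 611 CPM in control libraries. The 4 proliferation markers summed to between 2123 and 2176 CPM in unloaded and between 1953 and 2240 CPM in control libraries. Their part in the proteasome values was not tested.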

How the data were processed

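Total RNA of bone marrow cells was sequenced in 6 libraries, placed in 2 groups of 3 by their titles. CASAVA, HISAT2 2.0.5, featureCounts 1.5.0-p3 and build mm10 are named per the submitters' processing notes, with no role or order. Annotation release, strand option and handling of multi-mapped reads: not given in the sources used here. The authors deposited raw counts per gene, and the deposited table also lists a gene length, used as it stands. From the counts, 15015 of 54532 genes were kept by filterByExpr, scaled by TMM and compared with edgeR 4.0.16 in R 4.3.3, with Benjamini-Hochberg adjustment over all tested genes. DESeq2 1.42.0 and limma-voom 3.58.1 were alternatives. Each SE was obtained as |log2 fold change| over the root of the F statistic. A prior count of 2 entered log2 CPM. Floors used 3 counts and cover counting error only. Ratios were tested by an exact permutation test (SciPy 1.17.1).

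The members and gene lists were chosen with earlier results of these data known. Values per library are given for Psmb9, Psmb10, Psmb5, Psmb6, Psmb7, Psme1, Psme2, Psme3 and the 3 members with the smallest p in each direction. In each role group the highest and lowest level per length, and of each pathway list the 2 genes with the smallest p per direction, are also named; other members were named after their values were seen. Some genes that this rule names are not reported here. Paaf1, of the cofactor list, was not among the symbols of the table. The fit was tested on simulated counts. No libraries agreed within sampling noise (chi-square per degree of freedom from 6.64 to 34.3). Same-numbered libraries did not deviate together, with correlations from -0.0633 to 0.0309, so the numbers were not taken as pairs. Alternatives were RLE and upper-quartile scaling, other filters, protein-coding genes alone, the replicate block, each library left out, other pseudocounts for the ratios and, added after seeing the data, removal of GC trends.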

Additional observations from a re-analysis of the deposited data

How the results depend on the processing

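No proteasome gene was called by edgeR under any scaling, filter, gene set, block, GC or left-out-library setting, nor by DESeq2 or limma-voom, and the smallest adjusted p of a member ran from 0.372 to 0.999. The count of all genes called was 0 by edgeR as reported above, 183 without a low-count filter, 40 by DESeq2, 1 with the replicate block, and 0 to 5 with each library left out (5 without unloaded 1). The median fold change of the members was 0.08 to 0.11 under the other settings and 0.04 to 0.10 with each library left out. That of the constitutive subunits was -0.02 to 0.09 with each library left out. The number of members at an unadjusted p under 0.05 was 7 without unloaded 2 and 1 without unloaded 3, control 1 or control 3. It was 1 with the replicate block. The share of all tested genes at that p was not counted in these fits. These numbers therefore do not tell whether members differed from other genes. Since same-numbered libraries did not deviate together, the block shares only a number. With it the member median was 0.09, Psmb9 over Psmb6 had an exact sign-flip p of 0.25 and Psmb10 over Psmb7 0.75. With 3 replicate numbers the smallest p this sign-flip test can give is 0.25. The value of Psmb9 over Psmb6 is at that floor and decides nothing.

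Fold changes near 0 turned sign. Without a low-count filter Psmb6 and Psme1 were both at -0.01, and with GC trends removed both at -0.03. With each library left out Psmb5 ran from -0.04 to 0.10, Psmb6 from -0.04 to 0.04, Psmb7 from -0.07 to 0.12 and Psme1 from -0.08 to 0.07. Psmb10 over Psmb7 ran from -0.08, without unloaded 1, to 0.33, without unloaded 3. The cause was not tested. With 3 libraries a group the median SE of a member's log2 fold change was 0.12.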
